A study of Rattus norvegicus with 6 samples.

Results

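The genes described here encode the death receptor Fas, its adaptor Fadd, the caspases Casp2, Casp6, Casp8 and Casp9, the apoptosome scaffold Apaf1, cytochrome c (Cycs) and 2 inhibitor of apoptosis proteins (IAPs), Xiap and Birc2. They were taken by name from the annotation of an Affymetrix expression array of the rat (Rattus norvegicus), using only probe sets named by exactly 1 gene symbol and, for a gene with several, the probe set with the highest mean signal. All 10 genes were found, on 12 probe sets, among 14506 genes compared. RNA came from testis cells of 9-day-old or 21-day-old rats that had been put in primary culture and carry the label Sertoli cells, with 3 arrays per age and 6 in all. At both ages the culture medium held 10% fetal bovine serum and was changed after a further 24 hours. The labels place the younger cells within the phase in which Sertoli cells multiply and the older ones after it. They name no strain or genotype and do not state how many rats or cultures stand behind the arrays of an age, so each p-value rests on the spread between these arrays alone, which may be technical. The study set out to find genes of cell death, proliferation and the cell cycle that differ between the ages.

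The arrays had medians between 3.78 and 3.87 on the log2 scale and correlated at 0.978 to 0.995 across genes, which are not independent replicates. Of 14 measured Sertoli cell markers, Wt1 (6.94 to 7.44), Gata4 (7.56 to 8.21) and Clu (8.78 to 10.7) gave signals above these medians on every array. So did Tf (5.09 to 11.1), Inhbb, Krt18, Rhox5 and Aard. Another 5 markers, Amh, Cldn11, Fshr, Dhh and Gata1, lay below the medians on every array, and Shbg (2.96 to 5.66) lay on both sides. The 8 markers of smooth muscle cells, which in the testis surround the tubule as peritubular myoid cells, gave signal throughout, with list means of 8.54 to 10.1 at 9 days and 7.89 to 9.84 at 21 days. All 6 fibroblast and stroma markers also lay above the medians on every array, with list means of 8.52 to 9.58. Of them 1, Pdgfra, was without overlap between the ages, with a log2 difference of -0.73. Its unadjusted p in limma was 0.00736 (0.000386 with the replicate block, adjusted p 0.342). Sertoli markers without overlap were Tf, Shbg, Cldn11 and Amh, all higher at 21 days, by 3.59, 1.16, 0.37 and 0.21. The unadjusted p of Tf in limma was 0.00402 (0.000593 with the replicate block, adjusted p 0.347). Means of 11 of the 14 Sertoli markers were higher at 21 days, where 6752 of all 14506 genes were. For smooth muscle 0 of the 8 markers had higher means, all with overlap between the ages. For fibroblast and stroma it was 2 of the 6. Cyp11a1 of the Leydig list (0.17) and Zbtb16 of the germ cell list (-0.22) were also without overlap, as were 5.72% of all genes. Below the array medians on every array lay 7 of 8 germ cell markers, 5 of 8 macrophage and leukocyte markers, 3 of 5 Leydig cell markers and 2 of 5 endothelial markers, while Star of the Leydig list was at 10.8 to 11.3. The number of arrays limits the precision. Without detection calls it is unknown whether a low signal was above background.

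Programmed cell death by apoptosis is carried out by caspases, proteases that are made as inactive precursors. In the receptor route, Fas ligand binds Fas, Fas recruits Fadd, and Fadd recruits caspase-8, which then activates the executioner caspases. In the mitochondrial route, cytochrome c leaves the mitochondrion and binds Apaf1, and the resulting apoptosome activates caspase-9. IAPs such as Xiap bind and block active caspases, and Birc2 ubiquitinates signalling proteins at receptors of the tumour necrosis factor family. In the testis, Fas ligand and Fas are best known from the removal of germ cells that the Sertoli cells cannot support. Much of this regulation acts on proteins, by cleavage and release, and RNA levels do not show it.

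Promoter sequences are shown for the 4 genes among the 10 that differed most between arrays numbered 3 and the other arrays, Fas and Cycs with lower and Apaf1 and Birc2 with higher signal there. Of the 10 genes, 8 were matched in the RefSeq promoter table of build GRCr8, and Casp8 and Xiap were not. Each sequence covers the 250 bases before the annotated start, from 5′ to 3′ on the strand of the gene, with motif matches in capitals. The motifs searched on both strands were the GC box GGGCGG, the box CCAAT, the TATA box TATAAA and TGACG, the core of the cyclic AMP response element. They occurred in 30.5%, 34%, 12.9% and 18.2% of the 33469 promoters of the table.
Fas, chr1:241211905-241212154, strand +: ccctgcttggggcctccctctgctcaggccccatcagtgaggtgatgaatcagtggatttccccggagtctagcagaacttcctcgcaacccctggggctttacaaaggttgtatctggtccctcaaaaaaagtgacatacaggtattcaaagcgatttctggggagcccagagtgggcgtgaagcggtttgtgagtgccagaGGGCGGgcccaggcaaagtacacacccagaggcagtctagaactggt
Cycs, chr4:80984768-80985017, strand -: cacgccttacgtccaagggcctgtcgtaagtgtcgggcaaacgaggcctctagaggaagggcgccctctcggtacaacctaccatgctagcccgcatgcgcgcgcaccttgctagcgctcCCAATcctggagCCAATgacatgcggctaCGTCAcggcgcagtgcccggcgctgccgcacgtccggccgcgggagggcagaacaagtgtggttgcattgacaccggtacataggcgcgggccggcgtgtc
Apaf1, chr7:27466773-27467022, strand -: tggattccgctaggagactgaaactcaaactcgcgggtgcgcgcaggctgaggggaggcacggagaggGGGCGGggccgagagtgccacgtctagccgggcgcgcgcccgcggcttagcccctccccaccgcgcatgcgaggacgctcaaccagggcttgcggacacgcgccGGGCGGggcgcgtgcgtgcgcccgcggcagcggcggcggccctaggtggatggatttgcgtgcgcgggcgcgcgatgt
Birc2, chr8:13271541-13271790, strand -: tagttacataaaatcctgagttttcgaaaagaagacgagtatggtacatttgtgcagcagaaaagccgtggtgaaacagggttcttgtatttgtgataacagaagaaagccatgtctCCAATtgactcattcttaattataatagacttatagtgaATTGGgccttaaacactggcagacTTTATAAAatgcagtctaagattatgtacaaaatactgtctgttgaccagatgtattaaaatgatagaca

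Composition differed between promoters of genes that moved the same way. The Fas promoter held 1 GC box and 6 CpG dinucleotides, near the median of 5 over all promoters, whereas the Cycs promoter held 2 CCAAT boxes, 1 TGACG core on the opposite strand and 28 CpG. The Apaf1 promoter held 2 GC boxes and 39 CpG with 74% G and C. The Birc2 promoter held only 3 CpG with 34.4% G and C, 2 CCAAT boxes on opposite strands, and a stretch that matches the TATA box on both strands with overlap. These matches describe letters only.

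RNA of the 10 genes differed little between the ages, and none passed an adjusted p of 0.05 in limma. Their log2 differences, 21 days minus 9 days, ran from -0.25 for Fas to 0.069 for Casp2, with a median of -0.058 against -0.0093 over all genes. With the mean over the probe sets of a gene, which changes only Xiap and Cycs among the 10, the medians were -0.0086 and -0.0092. Casp2, Casp6, Casp8 and Casp9 were the 4 with higher means at 21 days, and the other 6 had lower means, where 53.5% of all genes did. The median size of the difference was 0.066 for the 10 genes and 0.076 for all genes. None of the 14506 genes passed (0%), with a lowest adjusted p in limma of 0.685, and of 0.132 with the replicate number as a block. At an unadjusted p under 0.05 there were 0 of the 10 genes and 2.97% of all genes. The values of the ages overlapped for each of the 10, where 5.72% of all genes had no overlap. In a culture of several cell types, fewer cells of a type and less RNA per cell cannot be told apart.

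The 95% confidence intervals of limma say how large a difference these arrays still allow. For 8 of the 10 genes the interval lay within a 1.5-fold change in either direction, and the exceptions were Fas and Birc2. With the replicate number as a block the intervals of all 10 lay within it, with ratios of 0.731 to 0.969 for Fas and 0.721 to 1.27 for Birc2. Both counts take Xiap by its probe set of higher mean, which may not measure Xiap. The log2 interval of the other Xiap probe set (10936198), without the block, was -0.40 to 0.82, which reaches beyond 1.5-fold. The intervals are not adjusted for the number of genes. Counts within 1.5-fold were not made over all genes. Without the block the median SE was 0.113 for the 10 genes and 0.112 for all genes, so this precision is not particular to the 10. In the plot of differences Casp6 has the narrowest and Birc2 the widest interval without the block.

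**Figure D1:**
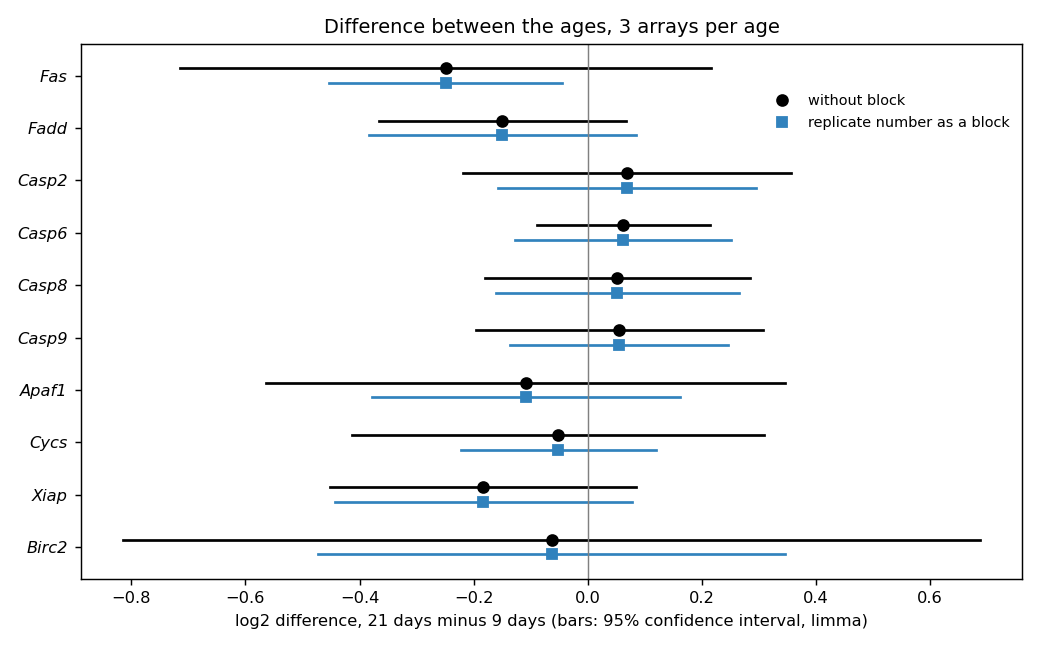
Log2 difference between the ages (21 days minus 9 days) for each of the 10 genes, with bars for the 95% confidence interval from limma, in black without and in blue with the replicate number as a block (3 arrays per age). Without the block every interval includes 0. With it, the interval of Fas runs from -0.45 to -0.046, and the other 9 include 0.

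Fas, the receptor, had the largest difference of the 10 genes, and it was toward lower signal in the older cultures. Its signals (probe set 10714890) were 5.65, 5.62 and 5.28 in 9-day-old replicates 1, 2 and 3 and 5.46, 5.44 and 4.90 in the 21-day-old ones. The arrays numbered 3 were the lowest of their age, and the values of the ages overlapped. The log2 difference was -0.25 ± 0.19 (SE, n = 3 each), a ratio of 0.841 with an interval of 0.609 to 1.16, and limma gave an unadjusted p of 0.236 and an adjusted p of 1. Between arrays of the same number the signal differed by -0.19, -0.18 and -0.38, and 14.4% of all genes were lower in 3 of 3 pairs. With the replicate number as a block the unadjusted p from limma was 0.0257, so that 1 of the 10 genes was under 0.05 where 7.73% of all genes were, and the adjusted p was 0.577. Without 21-day-old replicate 3 the difference was -0.065.

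Fadd carries the death domain that binds Fas and the death effector domain that binds caspase-8. It was measured at 6.21, 6.35 and 6.19 at 9 days and at 6.23, 6.05 and 6.02 at 21 days (probe set 10727228). Of the older arrays, replicates 2 and 3 lay below all younger arrays and replicate 1 lay among them. The log2 difference of -0.15 ± 0.09 (SE, n = 3 each) had an unadjusted p of 0.141 and an adjusted p of 1 in limma. Within the pairs it was 0.027, -0.30 and -0.17.

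Casp8, the caspase that Fadd recruits, was at 4.79 ± 0.06 at 9 days and 4.84 ± 0.15 at 21 days (probe set 10923595, log2, SD, n = 3 each). Its signals ran from 4.74 to 4.86 and from 4.68 to 4.97, and the older arrays enclosed the younger ones. The log2 difference was 0.052 ± 0.094 (SE), with an interval of -0.18 to 0.28. The 3 genes of the receptor route in this set thus held 2 lower means and 1 higher mean, none past the test.

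Casp6 varied least of the 10 genes, and all 4 caspases had small differences. Casp6, an executioner caspase that cleaves nuclear lamins, had signals of 5.60 to 5.69 at 9 days and 5.67 to 5.76 at 21 days (probe set 10819030), and its SD over all 6 arrays was 0.052. Its log2 difference of 0.062 ± 0.061 (SE, n = 3 each) had the narrowest interval of the 10 genes, -0.090 to 0.21. Casp9, the initiator that the apoptosome activates, was at 5.07 to 5.37 and 5.20 to 5.33 (probe set 10873768), a difference of 0.055 ± 0.10. Casp2, an initiator caspase linked to the response to DNA damage and to faulty cell division, was at 5.18, 5.09 and 5.49 at 9 days and at 5.30, 5.29 and 5.39 at 21 days (probe set 10855020). Its older arrays lay within the range of the younger ones, and the difference was 0.069 ± 0.12.

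Apaf1, the scaffold of the apoptosome, was at 6.34, 6.47 and 6.79 at 9 days and at 6.43, 6.13 and 6.71 at 21 days (probe set 10901783). The arrays numbered 3 were the highest at both ages. The log2 difference was -0.11 ± 0.18 (SE, n = 3 each), and it was 0.091, -0.34 and -0.078 within the pairs. Its interval of -0.56 to 0.35 was wider than those of the caspases.

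Cycs, whose product carries electrons in the respiratory chain and binds Apaf1 once released, differed almost wholly by array number. Its signals (probe set 10804954) were 8.89, 8.69 and 8.49 at 9 days and 8.84, 8.64 and 8.43 at 21 days. Within the pairs the difference was -0.044, -0.049 and -0.062, while arrays of the same age differed by several times as much. The mean log2 difference was -0.052 ± 0.15 (SE, n = 3 each), with a block SE of 0.066 and a block interval of -0.22 to 0.12. The other probe set of Cycs (10862501) had the same order of numbers at both ages: it read 8.19, 7.94 and 7.78 in the younger cultures, and 8.21, 7.94 and 7.72 in the older ones. Cycs has near-identical pseudogene copies, so that probe sets could share signal with them, and its level is uncertain for this reason.

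For Xiap, which binds and blocks the active executioner caspases, the direction of the difference depended on the probe set. The annotation ties the probe set of higher mean (10921195) to a sequence record other than the RefSeq transcript of Xiap, which only the other probe set carries, so whether it measures Xiap or a copy is not settled. Its values stand for Xiap in the counts, medians and plots over the 10 genes. It had signals of 9.60, 9.58 and 9.75 at 9 days and 9.28, 9.63 and 9.46 at 21 days, a log2 difference of -0.18 ± 0.11 (SE, n = 3 each). The probe set tied to the RefSeq transcript (10936198) had 5.30, 5.01 and 5.27 at 9 days and 5.78, 4.87 and 5.57 at 21 days, a difference of 0.21 ± 0.25. Neither passed in limma, with unadjusted p of 0.143 and 0.419. In each pair of arrays the probe sets went opposite ways, with -0.32, 0.051 and -0.28 for the first and 0.48, -0.13 and 0.30 for the other. No direction for Xiap is therefore drawn from these arrays.

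Birc2, the IAP known as cIAP1, varied most of the 10 genes, with an SD of 0.40 over all 6 arrays. It was at 4.46, 4.61 and 5.04 at 9 days and at 4.61, 4.10 and 5.20 at 21 days (probe set 10914788). The arrays numbered 3 were the highest at both ages, and 21-day-old replicate 2 the lowest of all. The log2 difference of -0.064 ± 0.30 (SE, n = 3 each) had an interval from -0.81 to 0.69, which was -0.47 to 0.34 with the replicate block.

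**Figure D2:**
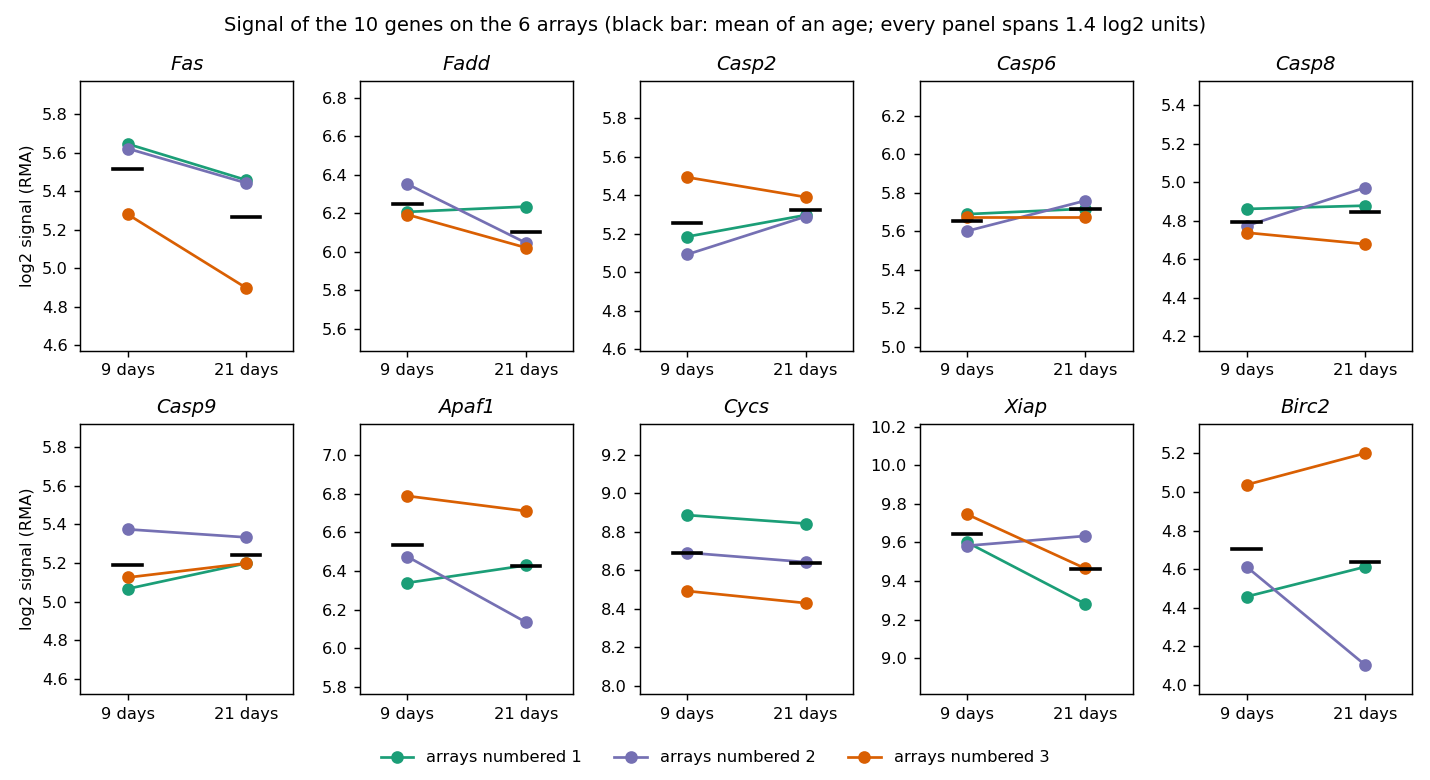
Log2 signal of each of the 10 genes on the 6 arrays, by age, with a line joining arrays of the same number and a black bar for the mean of an age; every panel spans the same range of signal. The arrays numbered 3 (orange) are lowest at both ages for Fas and Cycs and highest at both ages for Apaf1 and Birc2, and the means of the ages lie close together.

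For most of these genes, as for most of all genes compared, array number held more of the spread than age did. Of the sum of squares of a gene over the 6 arrays, the median share held by array number was 70.8% for the 10 genes (2 degrees of freedom) and that held by age was 7.05% (1 degree of freedom), against 51.7% and 10.9% over all genes. Cycs had 97.5% by number and 2.40% by age, and Birc2 had 80.5% and 0.77%. For Fas the shares were 72.0% and 24.5%. Age held the larger share for Fadd (44.2%), Casp6 (41.7%) and Xiap (39.3%) among the 10. Number held the larger share for 7 of the 10 and for 81% of all genes.

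Arrays numbered 3 lay outside both other arrays, on the same side at both ages, for 7 of the 10 genes, where 37.7% of all genes did. Casp2, Apaf1 and Birc2 were higher there, as were 18.6% of all genes, and Fas, Fadd, Casp8 and Cycs were lower, as were 19% of all genes. Against the mean of the other arrays of their age, Birc2 was higher by 0.50 at 9 days and 0.84 at 21 days on the log2 scale. Apaf1 was higher by 0.38 and 0.43, Fas differed by -0.35 and -0.55, and Cycs by -0.30 and -0.31. For arrays numbered 1 the same count was 2 of the 10 genes, against 24% of all genes, and for arrays numbered 2 it was 2, against 28.4%. On the arrays numbered 3 all 8 smooth muscle markers were above both other arrays at both ages, with list means higher by 1.41 at 9 days and 1.67 at 21 days, and the part of these cells in the values of the 10 genes was not tested. The Sertoli list was higher there by 0.035 and 0.71, and the fibroblast list differed by -0.017 and -0.65.

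**Figure D3:**
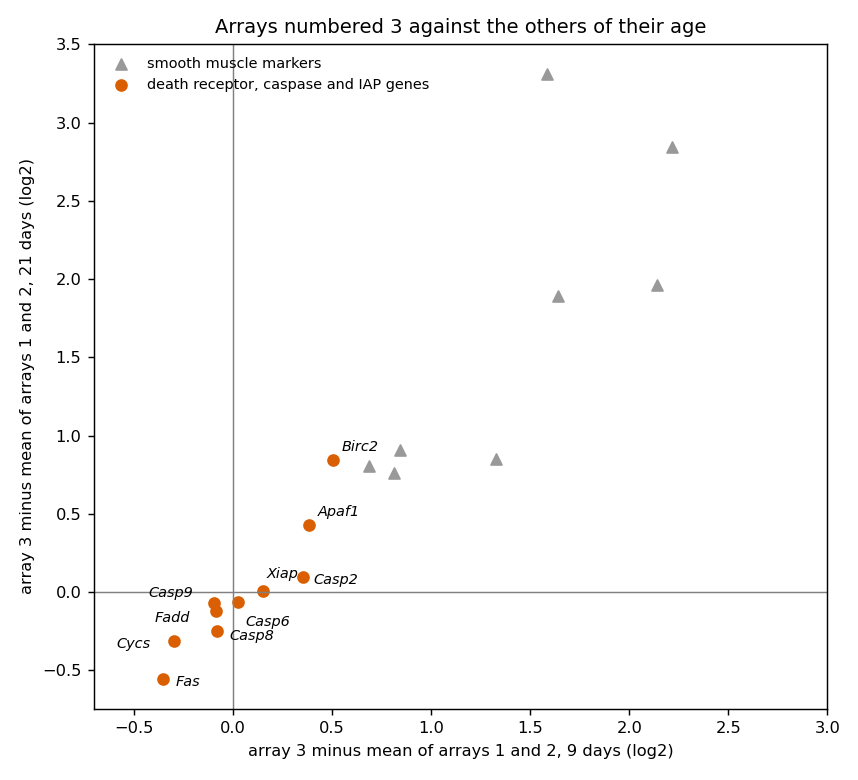
Log2 signal of the array numbered 3 minus the mean of arrays 1 and 2 of its age, at 9 days (horizontal axis) and 21 days (vertical axis), with orange points for the 10 genes and grey triangles for the 8 smooth muscle markers. Birc2 (0.50 and 0.84) and Apaf1 (0.38 and 0.43) lie to the upper right and Fas (-0.35 and -0.55) and Cycs (-0.30 and -0.31) to the lower left, while all smooth muscle markers lie to the upper right.

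Without both arrays numbered 3, a choice made after the data were seen, the picture by age was similar. Again 4 of the 10 genes had higher means at 21 days, and the median difference of the 10 was -0.086, against -0.0063 over all genes. In limma 0 genes passed over all genes. An unadjusted p under 0.05 was reached by 0 of the 10 and by 505 of all 14506 genes. Fas then differed by -0.18 with an unadjusted p of 0.0612, Casp2 by 0.15 and Birc2 by -0.18.

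The genes whose pattern was nearest to that of Birc2 over the 6 arrays, after each gene's mean was subtracted, were Cdk8, Nrp2 and Neo1. Their root mean square distances to Birc2 were 0.033, 0.034 and 0.042 on the log2 scale. Cdk8, a kinase of the Mediator complex, was at 8.04, 8.12 and 8.60 at 9 days and at 8.19, 7.70 and 8.72 at 21 days, highest on the arrays numbered 3 and lowest on 21-day-old replicate 2, as Birc2 was. Nrp2 is a receptor of semaphorins and Neo1 the receptor neogenin.

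Around the 10 genes, 42 of 54 listed genes of the same pathways were measured. The other 12 were not analysed here. Of the 42 genes 0 passed over all genes in limma, with 0 at an unadjusted p under 0.05 (2.97% of all genes) and 3 with the replicate block (7.73% of all genes). Means were higher at 21 days for 20 and lower for 22, and the median log2 difference was -0.019. No overlap between the ages was seen for 3 of the 42, against 5.72% of all genes.

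Among 11 measured receptors, ligands and decoys, 5 had higher and 6 lower means in the older cultures, and the median log2 difference was -0.020. Tnfrsf10b, a receptor for the ligand TRAIL, was the only gene of this list without overlap. It was at 7.11, 7.26 and 7.10 at 9 days and at 7.04, 6.87 and 7.04 at 21 days, a difference of -0.17 ± 0.08 (SE, n = 3 each) with an unadjusted p of 0.0782 and an adjusted p of 1 in limma. The ligands Faslg (2.37 to 2.66), Tnf (3.00 to 3.35), Tnfsf10 (2.46 to 2.72) and Lta (2.50 to 2.81) lay below the array medians on all 6 arrays, while the ligand Tnfsf12 was above them at 5.94 to 6.42. Small differences of the 4 low ligands do not show that their expression stayed the same.

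Among 11 measured adaptors and regulators of the receptor complex, 6 had higher and 5 lower means, with a median of 0.011. Faf1, which binds Fas, was without overlap, at 6.93 ± 0.05 and 6.83 ± 0.04 (log2, SD, n = 3 each), a difference of -0.10 ± 0.06 (SE). Ripk1, the kinase at the fork between survival and death below the tumour necrosis factor receptor, was at 6.74 ± 0.03 and 6.80 ± 0.03, and its nearest values of the ages differed by only 0.00042. Cflar, which encodes the caspase-8 inhibitor FLIP, was at 7.40, 7.50 and 7.62 at 9 days and at 7.41, 7.21 and 7.70 at 21 days, a difference of -0.063 ± 0.14.

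The 3 other caspases measured, Casp1, Casp4 and Casp12, belong to the inflammatory group and varied widely. Casp1, which matures interleukin-1β, was at 4.07, 3.71 and 3.24 at 9 days and at 4.67, 4.21 and 3.38 at 21 days. Its log2 difference was 0.42 ± 0.37 (SE, n = 3 each). On 9-day-old replicates 2 and 3 and 21-day-old replicate 3 its signal lay below the array median, so that it may be near background. The difference was 0.13 without 21-day-old replicate 1 and 0.77 without 21-day-old replicate 3. Casp1 was higher in 3 of 3 pairs, as were 10.7% of all genes, and lowest on the arrays numbered 3. Its unadjusted p in limma was 0.31 without and 0.0141 with the replicate block, where the adjusted p was 0.506. Casp4 differed by -0.32 ± 0.36, from 8.17, 6.95 and 7.95 in the younger cultures to 7.56, 6.96 and 7.58 in the older ones, and was lowest on the arrays numbered 2 at both ages. It ran from -0.69 without 9-day-old replicate 2 to -0.082 without 9-day-old replicate 1.

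Among 6 measured IAP genes and IAP antagonists, 4 had higher and 2 lower means. The largest difference was that of Septin4, whose locus encodes the IAP antagonist ARTS, at 4.05, 4.39 and 4.76 at 9 days and at 4.33, 4.001 and 7.004 at 21 days. It rested on 21-day-old replicate 3: the log2 difference was 0.71 ± 0.81 (SE, n = 3 each) with that array and -0.24 without it. Birc5, or survivin, which also serves chromosome segregation in mitosis, was at 6.18, 5.81 and 5.81 at 9 days and at 5.82, 5.72 and 5.33 at 21 days, a difference of -0.32 ± 0.17. It was lower in 3 of 3 pairs, and its unadjusted p in limma was 0.113 without and 0.0253 with the block, where the adjusted p was 0.574. Diablo, the mitochondrial antagonist of IAPs known as Smac, was at 8.47, 8.72 and 7.79 and at 8.57, 8.82 and 7.96, lowest on the arrays numbered 3 at both ages, as Cycs was.

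Among 11 mitochondrial effectors, nucleases and caspase substrates, 4 had higher and 7 lower means, with a median of -0.044. Casp8ap2, which binds caspase-8 and also acts in histone gene expression, was at 5.01, 4.93 and 5.52 at 9 days and at 4.79, 4.40 and 5.32 at 21 days, a difference of -0.32 ± 0.27 (SE, n = 3 each). Without 21-day-old replicate 2 it was -0.10, and without 21-day-old replicate 3 it was -0.56. Casp8ap2 was lower in 3 of 3 pairs, and its unadjusted p in limma was 0.293 without and 0.021 with the block, where the adjusted p was 0.554. Bid, the link from caspase-8 to the mitochondrion, differed by 0.30 ± 0.33, by 0.077 without 9-day-old replicate 3 and by 0.62 without 21-day-old replicate 3. The nuclease inhibitor gene Dffa had signals of 5.08 to 5.15 over all 6 arrays.

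**Figure D4:**
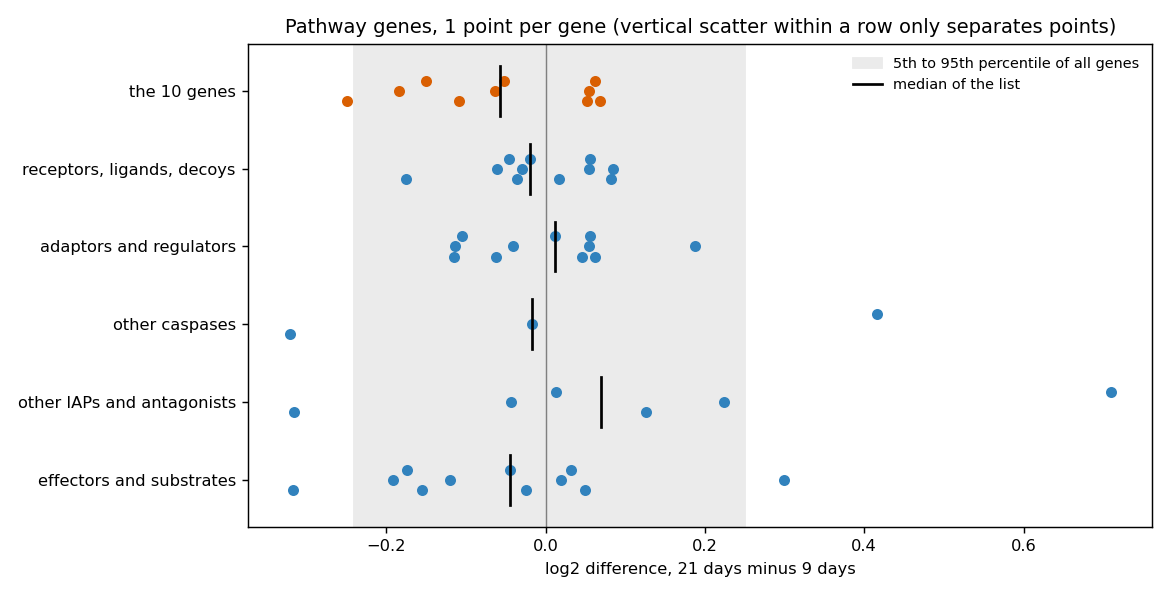
Log2 difference between the ages (21 days minus 9 days) of the 10 genes (orange) and of the 42 other pathway genes by list (blue), 1 point per gene, with a black line for the median of a list and grey shading from the 5th to the 95th percentile of all 14506 genes (-0.24 to 0.25). Of the 10 genes Fas (-0.249) lies just below the lower edge of the shading (-0.241) and the others lie within it. The point farthest to the right is Septin4 (0.71).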

How the data were processed

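Total RNA of 6 samples, 3 per age, was measured on 6 Affymetrix arrays, and samples were grouped and numbered by their titles. The authors deposited log2 values from RMA (background correction, quantile normalization, summary per probe set), per the submitters' processing notes, without a version or settings. RMA sets no zero, so signals of different probe sets were not compared as amounts. The labels describe gene expression, and the values were read as such, although the recorded series type is binding by array.

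Of 29214 probe sets, the platform annotation names 15310 with 1 gene and 323 with several, and 13581 are unnamed here. Of those with 1 gene, 15279 were found in the RefSeq table of GRCr8, which changed 0 symbols. No array coordinates are given, since its build is not stated. The ages were compared over 14506 genes in limma 3.58.1 (R 4.3.3; lmFit, eBayes), 21 days minus 9 days, without covariates, and p-values were adjusted by Benjamini-Hochberg over all genes with a threshold of 0.05. The fit was tested on simulated data whose noise was independent between arrays. That test did not cover spread shared by arrays of the same number. Deviations from the mean of an age correlated at 0.439, 0.549 and 0.673 across genes for arrays numbered 1, 2 and 3, each above 0.1. The numbers of the titles were therefore taken to pair the arrays, in the fit with the replicate block. SEs, intervals and p-values given without naming the block come from the unpaired fit, whose SE includes the spread between numbers. Pathway genes were named where the ages did not overlap (up to 3 per list) or else by the 2 largest differences; others are named after their values were seen, as were the motifs and the promoters shown. The genes, lists and alternatives were chosen with earlier results of these data known. The alternatives were the replicate block, filters on mean signal, other scalings, probe sets, variance models, array weights and leaving out arrays. Figures used matplotlib 3.10.9 (Python 3.11.15).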

Additional observations from a re-analysis of the deposited data

How the results depend on the processing

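None of the 10 genes, nor any gene over all, passed an adjusted p of 0.05 in limma under any alternative run, and the lowest adjusted p of the 10 genes was 0.577, that of Fas with the replicate block. Genes at an unadjusted p under 0.05 numbered 431, and 1122 with the replicate number as a block, 189 with the 50% of genes of highest mean kept and 780 with all 29214 probe sets fitted; without single arrays they were 304 to 628. Of the 10 genes 1, Fas, was under 0.05 with the block, and 0 to 1 without single arrays (Fadd without 21-day-old replicate 1, Xiap without 21-day-old replicate 2). Genes with higher means numbered 3 to 6 of the 10, and the median difference ran from -0.089 to 0.021, without single arrays. Away from these, 100 of 102 alternative values of the 10 genes kept their direction. Xiap reversed to 0.016 with the mean over probe sets and to 0.21 with its other probe set. Many of these values could not change direction. The block, the filters on mean signal, the variance model and the fit of all probe sets leave each difference as it was. The mean over probe sets does so for all of the 10 but Xiap and Cycs. Septin4 reversed to -0.056 without both arrays numbered 3, a choice made after the data were seen. Without single arrays 6 of the 10 genes reversed: the ranges were -0.25 to 0.036 for Apaf1, -0.35 to 0.20 for Birc2, -0.014 to 0.19 for Casp2, -0.012 to 0.13 for Casp8, -0.0065 to 0.15 for Casp9 and -0.15 to 0.053 for Cycs. Of 12 other named genes 4 reversed: -0.31 to 0.20 for Cdk8, -0.33 to 0.24 for Nrp2, -0.42 to 0.13 for Neo1 and -0.24 to 1.26 for Septin4. The causes were not tested. Unknown background limits what low signals show.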

Other observations

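Exact ties between arrays were common in the deposited values. Of 29214 probe sets, 10995 (37.6%) had the same value, to all digits given, on at least 2 of the 6 arrays, and 19 of the genes compared had the same value on all 6. Of the 10 genes described above 3 had such ties. Casp6 was at 5.67 on both arrays numbered 3, Casp9 at 5.20 on 21-day-old replicates 1 and 3, and Birc2 at 4.61 on 9-day-old replicate 2 and 21-day-old replicate 1. The other probe set of Cycs was at 7.94 on both arrays numbered 2. Differences within a pair, such as that of Casp6 on the arrays numbered 3, are 0 where such a tie falls.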
